A study of Mus musculus with 4 samples.

Results

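Solute carriers are membrane proteins that move amino acids, sugars, metal ions, inorganic ions, lipids and metabolites across the plasma membrane and the membranes of organelles. Their genes carry the symbol Slc, a family number and a member number, and the family number follows sequence similarity and, in most families, the kind of substrate. All genes of the deposited table whose symbol starts with Slc and a digit were taken, except Slc16a3 and Slc3a2, which left 66 of 4878 genes in 25 families. They were read as 13 mitochondrial carriers (Slc25), 9 genes of amino acid families (Slc1, Slc6, Slc7 and Slc38), 9 of metal families (Slc30 and Slc39), 8 of sugar and nucleotide sugar families (Slc2 and Slc35) and 27 of other families. The label holds for 63 of the 66, since Slc9a3r1 and Slc9a3r2 encode scaffold proteins and Slc4a1ap a protein named for binding an anion exchanger. The rule uses the symbol alone, though it was set with earlier results of these data known.

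The measurements are ribosome profiling of mouse embryonic fibroblasts, connective tissue cells grown from embryos, taken at passages given in the labels as a range. Control cells received a negative control siRNA and knockdown cells the siRNA labelled Si-eIF1A (X+18), both by lipid transfection, and each group holds 2 libraries. The labels give no strain, embryo stage, sex or time after transfection, and nothing says that the 2 libraries of a group came from separate cultures. The p-values therefore set a difference between groups against scatter estimated from these 4 libraries, which may be technical only. In this method RNase removes mRNA outside ribosomes, and the fragments left inside them, the footprints, are counted. The table gives a normalized read number per gene for the coding sequence and for the 5' UTR, called the leader here. Messenger RNA levels were not used, so a difference in footprints can come from mRNA amount, from translation or from both. The knockdown itself cannot be checked here, since Eif1ax and Eif1a were not analysed here.

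eIF1A binds the small ribosomal subunit with eIF1, helps it scan the leader and takes part in the choice of the start codon. Footprints on a leader can come from upstream open reading frames, short frames that are translated before the main one. Several amino acid transporter genes are known targets of ATF4, the transcription factor of the amino acid response, and Slc2a1 is a known target of the hypoxia response.

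Over both regions, the controls had 617663 (replicate 1) and 547916 reads (replicate 2), and the knockdown libraries 458191 and 280649. Leader reads made up 11.6% and 13.7% of them in the controls and 20.0% and 32.4% in the knockdown libraries. Of the fibroblast markers looked for, 3 of 11 were in the table, with Vim at 671 and 488 normalized coding reads in the controls and 1227 and 455 in the knockdown libraries, and Fn1 at 3032 and 4881 against 2209 and 2399. S100a4, the last of them, fell from 149.8 and 135 to 18.3 and 17.6 (log2 -2.92, limma adjusted p = 2.4e-05). None of 5 endothelial, 5 leukocyte, 5 skeletal muscle and 4 adipocyte markers was listed. Of 5 epithelial and 4 neuronal markers, Dsp and Map2 were listed. Map2 fell from 65.9 and 55.3 to 15.3 and 6.38 normalized coding reads, and the part of such changes in the results below was not tested.

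In coding footprints more Slc genes fell than rose, and the genes that rose were 2 cationic amino acid transporters and 2 members of the Slc35 family. Of 60 members with a mean of at least 10 normalized reads, 4 rose, 15 fell and 41 did not pass (limma adjusted p under 0.05, over all 4619 genes tested). That is 31.7% of the members, where 29.3% of all tested genes passed, 10.6% upwards and 18.7% downwards. Of the 4 rises, 3 passed the minimum through the knockdown group alone, and 1 of the 15 falls did so through the control group alone. The count of rises is therefore no support of its own. The median log2 change, knockdown minus control, was -0.35 for the members and -0.16 for all tested genes. In 13 members the lower knockdown value exceeded the higher control, and in 28 the higher knockdown value was under the lower control, where the shares over all tested genes were 26.0% and 40.1%. The calls rest on both controls, for the members as for the whole table. Without control replicate 1 limma called 5 members and 294 of all 4619 genes, and without control replicate 2 it called 0 members, with 13 at an unadjusted p under 0.05, and 11 of all genes. On whole reads edgeR called 6 members higher and 13 lower among 1712 genes called, and DESeq2 called 3 and 7 among 988. With TMM factors limma called 4 members higher and 12 lower, beside 17.0% and 16.8% of all tested genes.

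The groups of families differed in where their members lay, which is given as a description without a test. The median log2 change in coding reads was 0.30 for the 9 amino acid genes, -0.20 for 11 tested mitochondrial carriers, -0.29 for the 9 metal genes, -0.61 for 5 tested sugar genes and -0.83 for 26 tested genes of other families. The last group held 10 of the 15 falls and no rise. The median of the other families stayed between -0.96 and -0.67 under every alternative tried. That of the amino acid genes was -0.14 without knockdown replicate 1 and 0.70 without knockdown replicate 2, and that of the metal genes was 0.06 without control replicate 1. The sugar median was -1.11 and -0.11 without knockdown replicates 1 and 2, and the mitochondrial median -0.49 and 0.00.

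**Figure D1:**
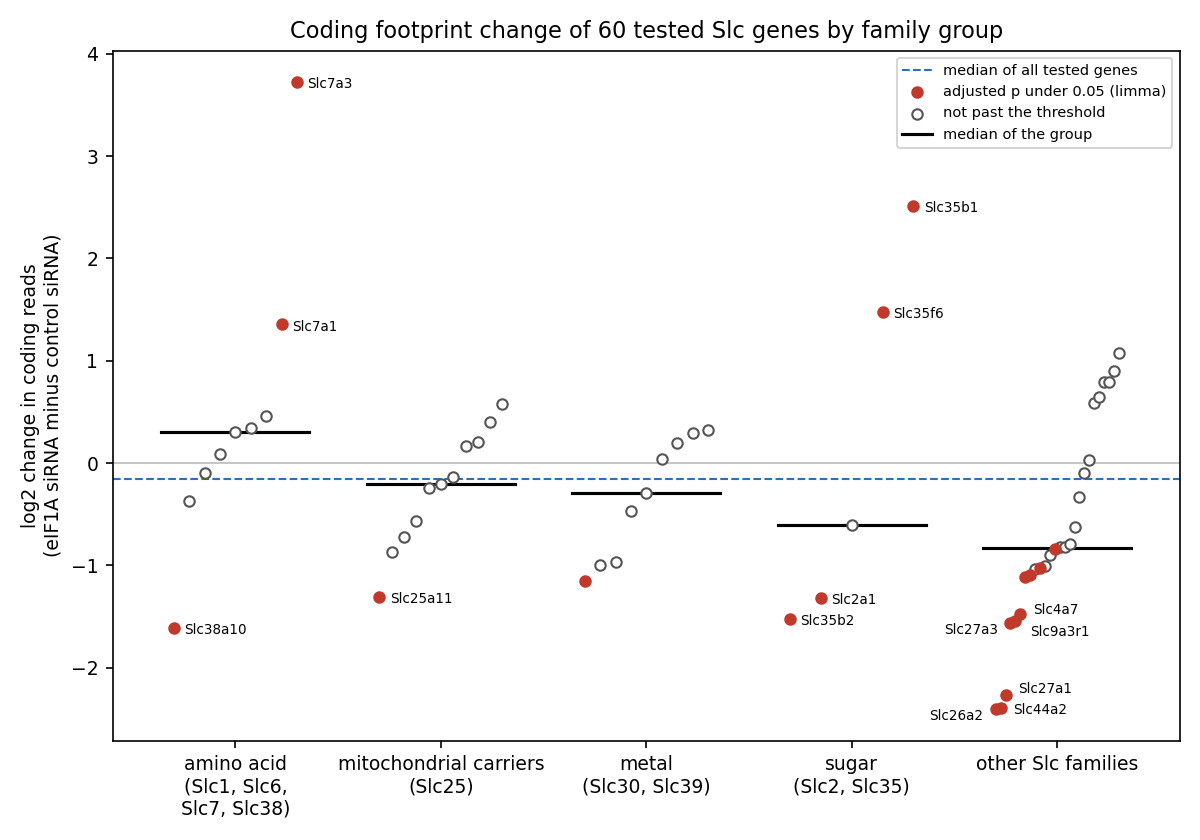
Log2 change in coding reads, eIF1A siRNA minus control siRNA, of the 60 tested Slc genes in 5 groups of families; filled dots passed limma's threshold, open dots did not, black lines are group medians and the dashed line is the median of all tested genes (-0.16). The amino acid genes have the highest median (0.30) and the other families the lowest (-0.83).

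The same groups were also set side by side as sums over their members. The 27 genes of other families together had 1402 and 1487 normalized coding reads in the controls and 829.9 and 753 in the knockdown libraries, 1.82 times less on average. The amino acid genes had 653 and 527 against 733 and 442, the mitochondrial carriers 588 and 499 against 647 and 374, the metal genes 416 and 339.7 against 369 and 305, and the sugar genes 193 and 164 against 195 and 112. The knockdown libraries lay apart from the controls in the first of these sums and overlapped with them in the other 4. Coding reads of all listed genes were 1.18 times lower on average in the knockdown libraries on the same scale. No test of a sum is given, since the smallest two-sided p that exact permutation allows with these 4 libraries is 0.333.

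Among the amino acid transporters, Slc7a1 and Slc7a3 rose. Both encode cationic amino acid transporters of the plasma membrane, which carry arginine and lysine. Slc7a3 (chromosome X, 101079146 to 101090452, GRCm38.p6, the build mm10) had 12.2 and 0.864 in the controls and 81.4 and 51.1 in the knockdown libraries, in normalized coding reads. Its knockdown values lie well above both controls, but control replicate 2 held 1 read, the lowest value in the table, so the controls differ widely between themselves. The change was a difference of 3.72 ± 0.67 SE on the log2 scale (adjusted p = 0.000975 by limma), and without control replicate 2 it was 2.31 with an adjusted p of 0.081. Slc7a3 overlaps Snx12 in the gene table, and reads there cannot be told apart where the counting does not separate them. The same limit holds for all 7 members that overlap another protein-coding gene, among them Slc25a11 (Rnf167) and Slc35a4 (Apbb3).

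Slc7a1 (chromosome 5, 148327410 to 148399904) had 40.8 and 29.4 in the controls and 111 and 73.4 in the knockdown libraries, in normalized coding reads. The groups did not overlap, and the mean rose from 35.1 ± 8.10 to 92.1 ± 26.5 (SD, n = 2), a difference of 1.36 ± 0.34 SE on the log2 scale (adjusted p = 0.00733 by limma).

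Slc38a10, a member of the sodium-coupled neutral amino acid transporter family, was the 1 amino acid gene that fell. It had 103 and 143 in the controls and 47.8 and 31.9 in the knockdown libraries, in normalized coding reads, a difference of -1.61 ± 0.33 SE on the log2 scale (adjusted p = 0.00219 by limma). Both knockdown values were well below both controls.

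The other 6 amino acid genes did not pass. Slc38a2, the neutral amino acid transporter SNAT2, had 358 and 245 in the controls and 292 and 179 in the knockdown libraries, in normalized coding reads, and its groups overlapped (log2 -0.37 ± 0.32). Slc1a4 (ASCT1), an exchanger of small neutral amino acids, had 33.0 and 16.4 in the controls and 38.6 and 16.0 in the knockdown libraries. Its groups overlapped, and in each group replicate 1 was well above replicate 2. Slc1a5, the glutamine carrier ASCT2, had 25.8 and 32.0 in the controls and 46.8 and 27.1 in the knockdown libraries, and Slc6a9, a glycine transporter, had 31.5 and 11.2 in the controls and 33.6 and 20.8 in the knockdown libraries. Slc7a6, an exchanger of cationic for neutral amino acids, had 39.4 and 38.0 in the controls and 72.2 and 33.5 in the knockdown libraries. Slc6a8, the creatine transporter, had 9.31 and 12.1 in the controls and 10.2 and 9.58 in the knockdown libraries, with overlapping groups. Of 8 amino acid transporters known as ATF4 targets, 6 were in the table, and Slc7a5 and Slc7a11 were not analysed here. Of these 6, Slc7a1 and Slc7a3 rose, while Slc6a9, Slc1a4, Slc1a5 and Slc38a2 had log2 changes of 0.46, 0.09, 0.30 and -0.37 and did not pass.

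Promoter windows of RefSeq (GRCm38.p6, 250 bases before to 50 after the start site) were at hand for 52 members and were searched on both strands for TGATGCAA, an ATF4 response element. It was present in 1 of the 52, Slc1a4, and in 0.783% of the table's genes with a window. The stretch is shown because Slc1a4 gained leader but not coding footprints, as described further on. It runs 5' to 3' on the gene's strand (chr11:20332700-20332727, minus strand), the match, read as the reverse complement, is in capitals, and its first base lies 4 bases before the start site.
Slc1a4: gcctcctgcgTTGCATCAtctccagcct
No window was at hand for Slc7a3, and these exact letters are not in that of Slc7a1. Other forms of the element were not searched. A match is a description of these letters and not a site of binding.

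The mitochondrial Slc25 proteins sit in the inner membrane of mitochondria and exchange metabolites and nucleotides between the matrix and the cytosol, and a few members act in peroxisomes. Of 11 tested, 1 fell and 10 did not pass. Slc25a11, the oxoglutarate and malate carrier, had 76.7 and 52.7 in the controls and 35.6 and 17.6 in the knockdown libraries, in normalized coding reads, a difference of -1.31 ± 0.38 SE on the log2 scale (adjusted p = 0.0176 by limma). The knockdown libraries lay below both controls, with replicate 2 the lower. The call was lost without knockdown replicate 2, with DESeq2, and without either control, and the log2 change ranged from -1.80 to -0.82 over 13 alternatives.

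Other carriers with many reads did not pass. Slc25a4, the ADP/ATP carrier ANT1, had 198 and 150.4 in the controls and 298 and 134 in the knockdown libraries, in normalized coding reads, and the knockdown pair lies on both sides of the controls. Its reads may be shared with near-identical carriers of the same family. Slc25a12 and Slc25a13, the aspartate and glutamate carriers, had log2 changes of -0.57 and -0.13. Slc25a24, an ATP-Mg and phosphate carrier, had 63.1 and 58.8 in the controls and 61.0 and 43.1 in the knockdown libraries, and Slc25a17, a peroxisomal carrier, had 45.1 and 49.3 in the controls and 68.1 and 41.5 in the knockdown libraries. In both, knockdown replicate 2 was below both controls and replicate 1 was not. Slc25a1, the citrate carrier, had 21.5 and 17.3 in the controls and 9.15 and 11.2 in the knockdown libraries, apart from the controls without passing (adjusted p = 0.179). The log2 changes of the remaining 4 tested carriers, Slc25a10, Slc25a20, Slc25a22 and Slc25a39, were 0.40, -0.20, 0.58 and -0.73. Slc25a44 and Slc25a51 were under the minimum in coding reads.

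Among the metal transporters, Slc30 proteins move zinc out of the cytosol into organelles or out of the cell, and Slc39 proteins move zinc and other metals into the cytosol. Of 9 tested, 1 fell and 8 did not pass. Slc39a10, a zinc importer, had 34.4 and 32.8 in the controls and 13.2 and 16.0 in the knockdown libraries, in normalized coding reads. Both knockdown values were below both controls, a difference of -1.16 ± 0.39 SE on the log2 scale (adjusted p = 0.0349 by limma), a call that was lost with DESeq2 and without either control. Slc39a6, the zinc importer ZIP6, had 90.3 and 91.6 in the controls and 114 and 95.8 in the knockdown libraries, with the knockdown values slightly above the controls and no call. Slc39a7, which releases zinc from the endoplasmic reticulum and Golgi, had 126 and 76.9 in the controls and 89.5 and 71.8 in the knockdown libraries, with overlapping groups. Slc30a5, a zinc carrier of the secretory pathway, had 26.5 and 38.0 in the controls and 19.3 and 12.8 in the knockdown libraries, below both controls without passing (adjusted p = 0.0833). Slc39a1, another zinc importer, had 43.0 and 36.3 in the controls and 47.8 and 49.5 in the knockdown libraries, and the knockdown values lie just above the controls. The log2 changes of Slc30a4, Slc30a6, Slc30a7 and Slc39a14 were -0.998, 0.32, -0.47 and 0.04.

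The Slc2 and Slc35 families, called sugar genes here, went both ways, with 2 rises and 2 falls among 5 tested. The group follows the family number and not the substrate of each member. Of the genes that passed, only Slc2a1 is described here as a sugar transporter, and it fell. Slc35b1, the ATP/ADP exchanger of the endoplasmic reticulum, rose (chromosome 11, 95384856 to 95391776). It had 11.5 and 6.05 in the controls and 72.2 and 38.3 in the knockdown libraries, in normalized coding reads, and the mean went from 8.76 ± 3.83 to 55.3 ± 24.0 (SD, n = 2), a difference of 2.52 ± 0.45 SE on the log2 scale (adjusted p = 0.00089 by limma). Slc35f6, another member of that family, had 6.45 and 7.78 in the controls and 26.4 and 17.6 in the knockdown libraries, and its call (log2 1.48, limma adjusted p = 0.0385) was lost in 5 of 13 alternatives. Both genes reached the minimum of 10 reads through the knockdown group alone, as did Slc7a3.

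Slc2a1, the glucose transporter GLUT1, fell (chromosome 4, 119108745 to 119137330). It had 74.5 and 61.4 in the controls and 39.7 and 17.6 in the knockdown libraries, in normalized coding reads, a difference of -1.32 ± 0.38 SE on the log2 scale (adjusted p = 0.0172 by limma), and over 13 alternatives the log2 change ranged from -1.89 to -0.76, with the call lost in 4, among them without knockdown replicate 2. Slc35b2, the Golgi transporter of the sulfate donor PAPS, had 55.2 and 44.1 in the controls and 21.4 and 12.8 in the knockdown libraries, a difference of -1.52 ± 0.38 SE on the log2 scale (adjusted p = 0.00763 by limma). In both genes the knockdown libraries lay below both controls and knockdown replicate 2 was the lowest. Slc35e1 had 24.4 and 33.7 in the controls and 26.4 and 12.8 in the knockdown libraries and did not pass. Slc35a4, Slc35c1 and Slc35e3 were under the minimum in coding reads.

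The core of the hypoxia response element, ACGTG, was searched in the same windows because Slc2a1 is a known target of that response. It was in 5 of the 13 falling members with a window, in 12 of 33 that did not pass and in 0 of 3 that rose. The share was 38.5% over the 52 members and 31.9% over the table's genes with a window. The stretch nearest the start site is shown for Slc2a1 (chr4:119108699-119108723, plus strand, match 36 bases before the start site), and for comparison for Slc37a3 (chr6:39377705-39377729, minus strand, 12 bases before) and Slc38a10 (chr11:120151486-120151510, minus strand, 149 bases before). Capitals mark the match, which for Slc38a10 reads as the reverse complement.
Slc2a1: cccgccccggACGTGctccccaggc
Slc37a3: ccccgaggtcACGTGagcgtccgga
Slc38a10: gaccccgcccCACGTcccgccgtcc

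Of 26 tested members of other families, 10 fell and 16 did not pass, and no member rose. The share that fell was 38.5%, where 18.7% of all tested genes fell. The 3 steepest falls were in carriers of different substrates. Slc44a2, a choline transporter-like protein (chromosome 9, 21320719 to 21355028), had 94.6 and 91.6 in the controls and 16.3 and 17.6 in the knockdown libraries, in normalized coding reads. The replicates of each group were close together, and the mean fell from 93.1 ± 2.10 to 16.9 ± 0.909 (SD, n = 2), a difference of -2.39 ± 0.33 SE on the log2 scale (adjusted p = 0.000145 by limma). Its log2 change ranged from -2.49 to -2.16 over 14 alternatives, and the call was lost in 1, without control replicate 2. Slc26a2, a sulfate transporter, had 38.0 and 37.2 in the controls and 8.14 and 4.79 in the knockdown libraries, a difference of -2.41 ± 0.46 SE on the log2 scale (adjusted p = 0.00151 by limma). It passed the minimum through the control group alone.

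Fatty acid transport proteins lay on the same side. Slc27a1 (FATP1), which takes up long-chain fatty acids, had 59.5 and 53.6 in the controls and 18.3 and 6.38 in the knockdown libraries, in normalized coding reads, a difference of -2.27 ± 0.44 SE on the log2 scale (adjusted p = 0.00172 by limma). Slc27a3 had 71.7 and 65.7 in the controls and 26.4 and 19.2 in the knockdown libraries and changed by -1.57 (log2, adjusted p = 0.00319 by limma). Slc27a4 had 51.6 and 51.0 in the controls and 23.4 and 35.1 in the knockdown libraries. All 3 had both knockdown libraries below both controls, and Slc27a4 did not pass (log2 -0.82, adjusted p = 0.0852).

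Anion and bicarbonate carriers fell as well. Slc4a7, a sodium bicarbonate cotransporter, had 165 and 210.0 in the controls and 60.0 and 73.4 in the knockdown libraries, in normalized coding reads, a difference of -1.47 ± 0.30 SE on the log2 scale (adjusted p = 0.00213 by limma). Slc4a2, the anion exchanger AE2, had 173 and 231 in the controls and 99.7 and 95.8 in the knockdown libraries, with the knockdown values close together and below both controls (log2 -1.03, limma adjusted p = 0.0154). Slc4a1ap, which is no transporter, had 39.4 and 36.3 in the controls and 40.7 and 36.7 in the knockdown libraries, level across the 4 libraries.

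The potassium chloride cotransporters of the Slc12 family were near the threshold. Slc12a4 (KCC1) had 115 and 117 in the controls and 54.9 and 75.0 in the knockdown libraries, in normalized coding reads, and Slc12a7 (KCC4) had 96.7 and 132 in the controls and 59.0 and 68.6 in the knockdown libraries. Both lay below both controls in both knockdown libraries. Their adjusted p-values by limma were 0.0462 and 0.054, so Slc12a4 passed and Slc12a7 did not. The call of Slc12a4 was lost in 8 of 14 alternatives. Slc12a9, of the same family, had 36.5 and 34.6 in the controls and 31.5 and 35.1 in the knockdown libraries with overlapping groups.

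Sodium proton exchangers and their scaffolds differed. Slc9a3r1, the scaffold NHERF1, had 49.4 and 53.6 in the controls and 29.5 and 9.58 in the knockdown libraries, in normalized coding reads, a difference of -1.55 ± 0.44 SE on the log2 scale (adjusted p = 0.016 by limma), with knockdown replicate 2 well below replicate 1. Slc9a3r2 had 31.5 and 24.2 in the controls and 18.3 and 9.58 in the knockdown libraries and did not pass. Slc9a8, an exchanger of organelles, had 11.5 and 6.05 in the controls and 24.4 and 14.4 in the knockdown libraries, above both controls without passing. Slc37a3 had 34.4 and 37.2 in the controls and 12.2 and 20.8 in the knockdown libraries, and its call (log2 -1.12, limma adjusted p = 0.0441) was lost in 8 of 13 alternatives.

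Among the members of other families that did not pass, 6 carriers of vitamins, metals and ions had the highest log2 changes. They were Slc9a8 (1.08), the thiamine transporter Slc19a2 (0.90), the iron transporter Slc11a2 (0.79), the phosphate transporter Slc20a1 (0.79), the ascorbate transporter Slc23a2 (0.65) and the copper transporter Slc31a1 (0.59). Of these, Slc9a8, Slc19a2 and Slc20a1 passed the minimum through the knockdown group alone, which favours a higher change. Slc45a4, given next, passed it through the control group alone, which favours a lower one. Lower values were those of the nucleoside transporter Slc29a1 (-0.90), Slc45a4 (-1.04) and the inositol transporter Slc5a3 (-0.63), which overlaps Mrps6. Slc41a2, a magnesium transporter, was under the minimum in coding reads.

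**Figure D2:**
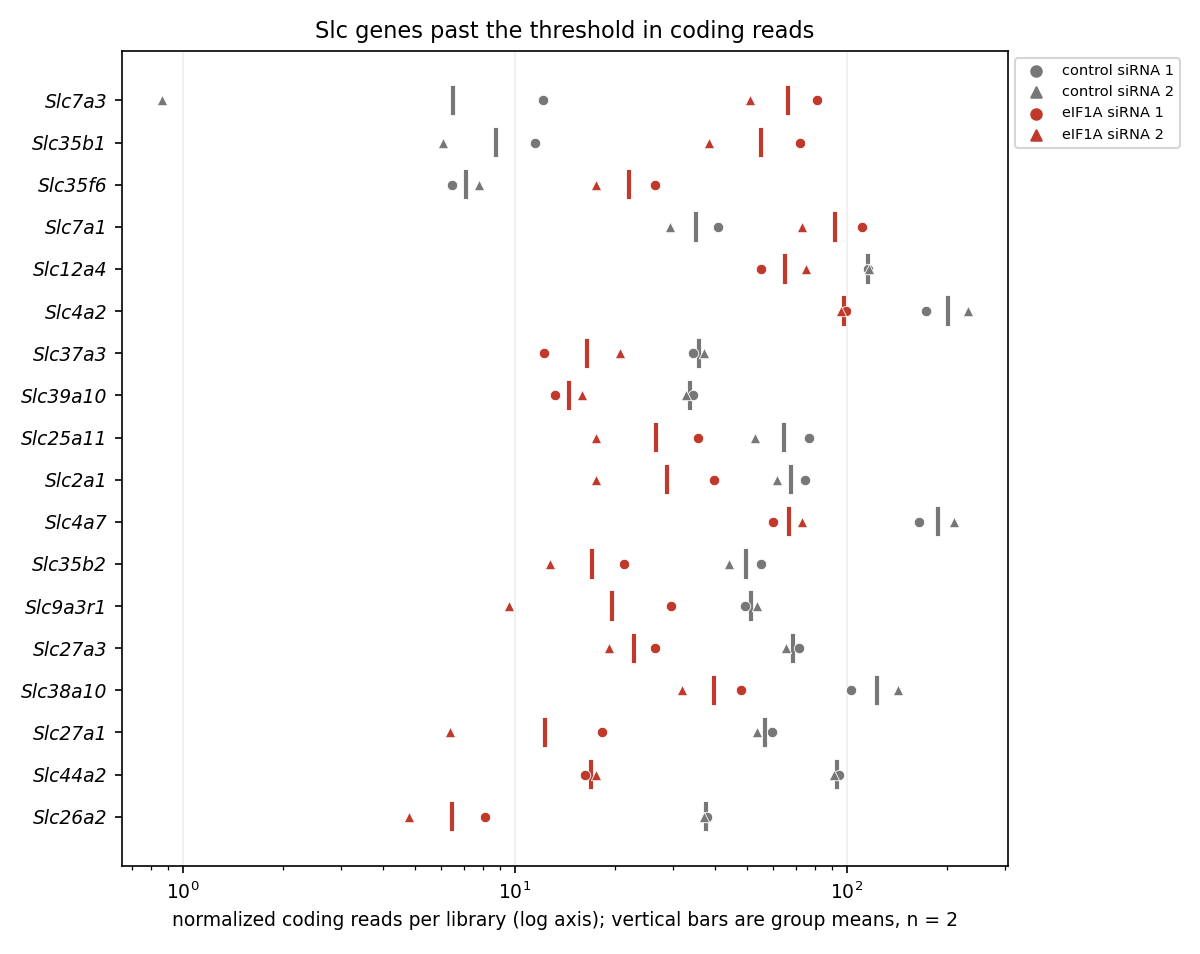
Normalized coding reads per library (log axis) of Slc genes past limma's threshold (1 of the 19 is not shown), ordered by log2 change, with grey for control siRNA, red for eIF1A siRNA, circles for replicate 1, triangles for replicate 2 and bars for group means (n = 2). In every row the 2 red symbols lie on 1 side of the grey ones, and Slc7a3 has a control at 0.864.

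Leader footprints were higher in the knockdown libraries for most tested genes, Slc genes among them. Of 36 members with a mean of at least 10 normalized leader reads, 10 rose, none fell and 26 did not pass by limma, with 15 at an unadjusted p under 0.05 in either direction. The share that rose was 27.8%, where 46.8% of 2101 tested genes passed, 44.0% upwards and 2.81% downwards. The median log2 change was 0.85 for the members and 1.09 for all tested genes. The knockdown values were both above the controls in 23 members and both below in 1, where the shares over all tested genes were 67.4% and 7.19%. Here and for the ratio, limma took the variance from the trend over all genes alone, on which small p-values rest. Of the 10 that rose, 8 passed the minimum through the knockdown group alone, so their count is no support of its own.

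The balance of these calls moved with the scaling. With TMM factors, which bring the median of all tested genes from 1.09 to 0.03, 6 members were higher and 5 lower, and edgeR and quantile normalization gave the same split, where TMM factors put 20.9% of all tested genes higher and 21.1% lower. The 6 were Slc7a1, Slc7a3, Slc35b1, Slc39a6, Slc23a2 and Slc35c1. The 5 lower ones included Slc25a11 (-1.55), Slc25a51 (-1.42), Slc2a1 (-1.32) and Slc39a1 (-1.22) with TMM factors, and none of the 5 passed on the deposited scale. DESeq2 called 3 higher and 2 lower. On the deposited scale limma called 4 members without control replicate 1 and 21 without knockdown replicate 1, where it called 189 and 1396 of the 2101 genes tested.

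The cationic amino acid transporters had the largest leader changes. Slc7a1 had 5.02 and 2.59 in the controls and 51.9 and 84.6 in the knockdown libraries, in normalized leader reads, a difference of 3.85 ± 0.55 SE on the log2 scale (adjusted p = 3.95e-10 by limma). Both knockdown values were far above both controls. Slc7a3 had 0.717 and 0.864 in the controls and 31.5 and 39.9 in the knockdown libraries. Each control value stands for 1 read, which may also stand for 0, against 31 and 25 reads in the knockdown libraries. The knockdown was 44.4 times higher with a 95% counting interval of 11.7 to 376, or at least 28.5-fold higher against a floor of 3 reads over the control group if 1 read was added to every value. Intervals and floors cover counting error only. Both genes were higher in the leader and in the coding sequence, and both stayed past the threshold in the leader under every alternative in which they were tested.

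Slc39a6 had the next largest leader change and no call in coding reads. It had 11.5 and 14.7 in the controls and 101 and 129 in the knockdown libraries, in normalized leader reads, a difference of 3.04 ± 0.50 SE on the log2 scale (adjusted p = 5.15e-08 by limma). The ratio of its leader reads to its coding reads was 0.144 for the control means and 1.10 for the knockdown means. Slc35b1 had 2.87 and 2.59 in the controls and 21.4 and 25.5 in the knockdown libraries, in normalized leader reads, a log2 change of 2.71 beside its coding change of 2.52.

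Slc35c1 and Slc25a44 rose in the leader with few coding reads. Slc35c1, the Golgi transporter of GDP-fucose, had 6.45 and 6.91 in the controls and 29.5 and 38.3 in the knockdown libraries, in normalized leader reads (log2 2.17, limma adjusted p = 0.00068), and at most 5.02 coding reads in any library. Slc25a44, a branched-chain amino acid carrier of mitochondria, had 3.58 and 11.2 in the controls and 19.3 and 31.9 in the knockdown libraries (log2 1.79). In both, every knockdown value was above both controls.

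The other 4 rises were in genes whose coding reads did not pass. Slc23a2, the ascorbate transporter, had 4.30 and 12.1 in the controls and 30.5 and 41.5 in the knockdown libraries, in normalized leader reads (log2 2.13 ± 0.55, limma adjusted p = 0.000702). Slc1a4 had 4.30 and 9.51 in the controls and 28.5 and 30.3 in the knockdown libraries (log2 2.03 ± 0.57, adjusted p = 0.00189). Slc30a5 had 4.30 and 8.64 in the controls and 11.2 and 31.9 in the knockdown libraries (log2 1.49, adjusted p = 0.0358), and Slc25a4 had 25.8 and 33.7 in the controls and 51.9 and 126 in the knockdown libraries (log2 1.43, adjusted p = 0.0106). The replicates of Slc30a5 and Slc25a4 differed by more than 2-fold within the knockdown group. With TMM factors Slc1a4, Slc30a5, Slc25a4 and Slc25a44 did not pass. Their log2 changes went down to as little as 0.97, 0.32, 0.33 and 0.66 over the alternatives.

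**Figure D3:**
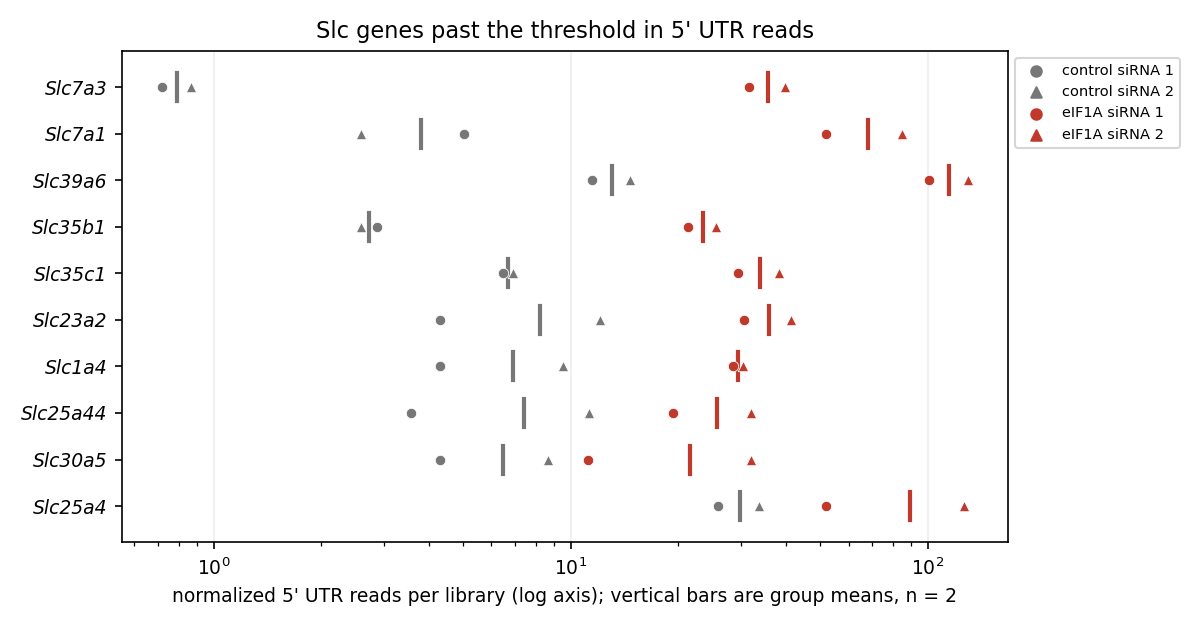
Normalized 5' UTR reads per library (log axis) of the 10 Slc genes past limma's threshold, with grey for control siRNA, red for eIF1A siRNA, circles for replicate 1, triangles for replicate 2 and bars for group means (n = 2). The rows run from Slc7a3, with both controls at 1 read, to Slc25a4, and all red symbols lie to the right of the grey ones.

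Some members had most of their footprints on the leader in every library. Leader reads exceeded coding reads in all 4 libraries in 5 members (7.58%), where 5.15% of all listed genes showed this. They were Slc35a4, Slc35c1, Slc25a44, Slc25a51 and Slc6a8. The reads are not per length, so the comparison is of read numbers only. Slc35a4, whose leader is known to hold a translated upstream reading frame, had 27.2 and 24.2 in the controls and 26.4 and 76.6 in the knockdown libraries, in normalized leader reads, against 1.43 and 1.73 in the controls and 3.05 and 1.60 in the knockdown libraries, in coding reads. Knockdown replicate 2 stood apart from the other 3 libraries, and the leader change did not pass (adjusted p = 0.183). In a further 3 members, Slc30a7, Slc39a7 and Slc45a4, the leader held more reads than the coding sequence in both knockdown libraries and fewer in both controls. That is 4.55% of the members, close to the 4.12% of all listed genes. At the other end, 9 members (13.6%, beside 17.6% of all listed genes) held 1 leader read in every library, among them Slc12a4, Slc12a7, Slc25a12 and Slc27a1, whose coding reads were well above the minimum.

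The leader change and the coding change can be set side by side for 30 members tested in both. Slc7a1, Slc7a3 and Slc35b1 rose in both regions. Slc1a4, Slc23a2, Slc25a4, Slc30a5 and Slc39a6 rose in the leader without passing in the coding sequence. Slc25a11, Slc27a3, Slc2a1, Slc38a10, Slc4a2 and Slc9a3r1 fell in the coding sequence without passing in the leader. The remaining 16 passed in neither, and none of the 30 rose in the leader and fell in the coding sequence. A further 9 members that fell in the coding sequence were not tested in the leader, so this pattern could not be called there.

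**Figure D4:**
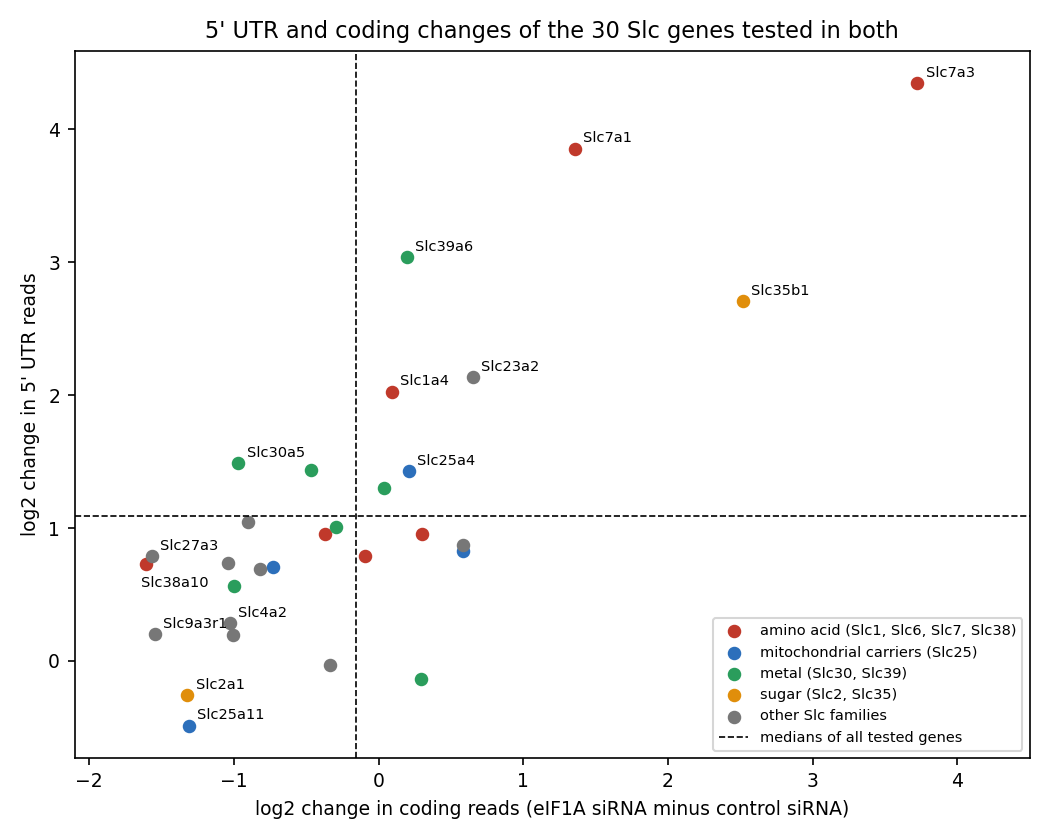
Log2 change in 5' UTR reads against log2 change in coding reads, eIF1A siRNA minus control siRNA, of the 30 Slc genes tested in both regions, coloured by group of families; dashed lines are the medians of all tested genes (1.09 and -0.16). Slc7a3, Slc7a1 and Slc35b1 lie at the upper right, and Slc39a6 lies high in the leader near 0 in the coding sequence.

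The ratio of leader to coding reads, taken as a difference of log2 values, rose in 5 of the 30 members and fell in none (10 at an unadjusted p under 0.05). That is 16.7%, where 19.5% of 1907 tested genes passed, 19.4% upwards and 0.0524% downwards. The knockdown ratios were both above the controls in 17 members and both below in none, where the shares over all tested genes were 63.9% and 1.52%. The median was 1.32 for the members and 1.23 for all tested genes. Slc39a6 had the largest change, 2.84 ± 0.79 (SE, limma adjusted p = 0.00626), followed by Slc7a1 at 2.50, Slc30a5 at 2.46, Slc27a3 at 2.36 and Slc38a10 at 2.34. Of these 5, all but Slc39a6 passed the leader minimum through the knockdown group alone, which favours a higher ratio, so their count is no support of its own. The first 3 had more leader reads in the knockdown libraries, while Slc27a3 and Slc38a10 had fewer coding reads and leader values that did not pass. In Slc7a3 and Slc35b1, where both regions rose, the ratio changed by 0.63 and 0.19 and did not pass. No ratio call held with TMM or quantile scaling of each region, or without either control, where limma called 0 members, with 6, 5, 0 and 2 at an unadjusted p under 0.05. Of all 1907 genes it called 1, 10, 3 and 0 in these settings. Without knockdown replicate 1 the median change of the ratio was 1.85 for the members and 1.76 for all tested genes. Without knockdown replicate 2 these medians were 0.71 and 0.76.

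Genes that work beside these carriers were counted on lists of known function. Of all tested genes 29.3% passed in coding reads, 10.6% upwards and 18.7% downwards. Of 21 genes of mitochondrial transport without an Slc name, 13 were tested in coding reads, of which 1 rose, the carrier homologue Mtch2 (1.08), and 2 fell, among them Mtch1 (-1.07). The list's median log2 change was -0.34. Of 17 metal handling genes, 7 were tested, of which Tfrc, the transferrin receptor, rose from 95.3 and 81.2 to 291 and 309.7 normalized coding reads (log2 1.76, limma adjusted p = 0.000464). Ftl1, the ferritin light chain, fell by 1.295 on the log2 scale.

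Of 24 genes of nucleotide sugar synthesis, 11 were tested, of which 3 fell and none rose, among them Pgm2 (-1.39) and Papss1 (-1.24), which makes the PAPS that Slc35b2 carries. Of 28 genes of amino acid sensing at the lysosome, 17 were tested, of which 3 rose, with Sesn2 at 1.54 and Sec13 at 1.14, and 4 fell, with Sesn1 at -2.35 and Depdc5 at -1.55. Of 33 ATPase pumps and ABC transporters, 11 were tested, of which 1 rose and 2 fell. Abcb1b, a drug efflux pump with a near-identical copy, rose from 9.31 and 6.91 to 66.1 and 62.2 normalized coding reads (log2 2.85). These lists had medians of -0.68, 0.42 and -0.21, beside -0.16 for all tested genes. The share of tested genes that passed was 23.1% for mitochondrial transport, 28.6% for metal handling and 27.3% for nucleotide sugar synthesis. It was 41.2% for amino acid sensing and 27.3% for the pumps and ABC transporters, beside 29.3% of all tested genes. The counts are a description and were not tested.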

How the data were processed

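Ribosome footprints of mouse embryonic fibroblasts were analysed in 2 control siRNA and 2 eIF1A siRNA libraries. The build mm10 and the programs HTSeq, TopHat2, Bowtie, DESeq2 and cutadapt are named per the submitters' processing notes, without versions or roles. Each gene has a deposited signal, which the authors normalized, for its 5' UTR and its coding sequence, per the file headers. In each library, 100% of values were whole multiples of 1 read, within 0.001 reads (0.717, 0.864, 1.02 and 1.60 per read), and whole reads were recovered. The lowest value was 1 read, which may stand for 0.

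The main test was limma 3.58.1 (R 4.3.3, trend, Benjamini-Hochberg over all tested genes, threshold 0.05) on log2(value + 1), for genes with a mean of at least 10, fitted on the whole table. This scale understates changes of genes with few reads. For the ratio, both regions had to pass. edgeR 4.0.16 and DESeq2 1.42.0 were run on the recovered reads as alternatives, beside other pseudocounts, filters, scalings and left-out libraries. The procedure was tested on simulated data. Gene lists and members were chosen with earlier results of these data known. Named were all members past a threshold, up to 4 further members per group of families with the highest mean, and known ATF4 targets; other members are named for completeness, with their values seen. Coordinates and promoter windows are RefSeq's (GRCm38.p6), and all 66 members matched. Slc16a3 and Slc3a2 were left out by the rule. Some members and list genes were counted but are not reported here by name.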

Additional observations from a re-analysis of the deposited data

How the results depend on the processing

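No member that passed changed sign in any alternative, but none of the 19 coding calls held in all of them. The number of members changed in coding reads was 10 with DESeq2 and 8 with a minimum mean of 50, where only 15 members were tested, and 0 to 23 when 1 library was left out (19 as reported). For the leader it was 5 with DESeq2, 3 with a minimum of 50 and 4 to 21 with 1 library left out (10 as reported). For the ratio it was 1 with a minimum of 50, 10 without a filter, 0 with quantile normalization, 0 with TMM factors and 0 to 21 with 1 library left out (5 as reported). The replicate numbers are shared by the groups, but nothing says that they pair the libraries. Same-numbered libraries deviated from their group means with a correlation of 0.261 in coding reads and -0.061 in the leader. With the replicate block limma called 24 members in coding reads, 16 in the leader and 14 in the ratio. Over all tested genes it then called 1921 of 4619, 1258 of 2101 and 851 of 1907, so the counts moved for the whole table.

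The median log2 change in coding reads with a minimum of 50 was -0.37 for the amino acid genes and -0.048 for the metal genes. With 1 library left out it ranged from -0.14 to 0.70 for the amino acid genes, -0.65 to 0.059 for the metal genes, -0.49 to 0.00339 for the mitochondrial carriers and -1.11 to -0.11 for the sugar genes. Leaving out a library leaves 1 in its group, which is then assumed to vary like the other group.

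With a minimum of 50 there was no sugar median, since too few sugar genes were tested. Some members that did not pass in coding reads changed sign, and the cause was not tested. With 1 library left out, log2 changes ranged from -0.52 to 0.70 for Slc1a4, -0.079 to 0.68 for Slc1a5, -0.54 to 0.28 for Slc25a13, -0.18 to 0.52 for Slc25a17, -0.49 to 0.00339 for Slc25a24, -0.36 to 0.78 for Slc25a4, -0.078 to 0.71 for Slc30a6, -0.27 to 0.34 for Slc39a14, -0.65 to 0.059 for Slc39a7, -0.25 to 1.16 for Slc6a9 and -0.20 to 0.88 for Slc7a6. With DESeq2, edgeR and TMM factors, Slc25a13 was at 0.086, 0.11 and 0.024, Slc12a9 at 0.070, 0.047 and 0.070, and Slc6a8 at 0.044, 0.039 and 0.055 (0.054 with quantile normalization), and Slc39a14 was at -0.010 with 1 read taken off every value. Depth limits genes near 10 reads.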
